A study of Mus musculus with 16 samples.

Results

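Hematopoietic stem and progenitor cells that carry the Gata2 label and their WT counterparts were compared for how far each gene's RNA level moved between Day0 and Day2. The quantity is the genotype difference in response, that is, the Day2 over Day0 change in libraries labelled Gata2 minus the same change in WT libraries, on the log2 scale. It was fitted over 10 LSK libraries of the 16 in the series: 2 libraries of Day2_Gata2, 3 of Day0_Gata2, 3 of Day2_WT and 2 of Day0_WT. All gene IDs of the count table entered, 45706 in all, of which 45143 had a symbol and 19162 passed the filter on low counts and were tested. LSK cells are mouse marrow cells without mature blood markers that carry Sca-1 and Kit, and blood stem cells and the first progenitors are among them. The series concerns haploinsufficiency for the transcription factor GATA2 and a challenge in which few sorted LSK cells were given to irradiated WT mice. All groups are bone marrow libraries labelled as LSK cells, while the extraction protocol speaks of lineage-negative marrow cells. The labels name the groups by day and genotype alone, give no strain, age or Gata2 allele, and do not say what the cells went through between Day0 and Day2, nor whether each library is its own animal, so each p-value here measures library-to-library spread alone, part or all of it possibly technical.

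As background, cells that run short of oxygen or that start to grow stabilise the transcription factor HIF-1, which turns on glucose transporters, glycolytic enzymes, lactate export, mitophagy receptors and the prolyl hydroxylases that feed back on HIF itself. Quiescent stem cells in the marrow rely largely on glycolysis, and activation brings amino acid uptake, sterol synthesis and protein folding capacity with it. NF-kB drives its own inhibitor Nfkbia and a set of chemokines, so levels of those genes follow inflammatory signalling. GATA2 is needed for stem cell survival and self-renewal.

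Depth ran between 19618830 and 68305582 counted reads per library, with the lowest total in Day0_WT replicate 1. That library stands apart. Its correlation with Day0_WT replicate 2 was 0.911 on log2(CPM + 1), against 0.989 to 0.996 for the other replicate pairs, and 9.33% of its counts fell on repeat-rich genes. Day0_WT was therefore the group of largest spread, with a median SD per gene of 0.405 log2 units, against 0.161 in Day2_Gata2, 0.101 in Day0_Gata2 and 0.161 in Day2_WT. The part of this unequal spread in the responses below was not tested. Day0_Gata2 replicate 3 and Day0_WT replicate 2 had high Xist, and the other 8 libraries did not. The LSK marker genes summed to 1507 to 1688 CPM (counts scaled by edgeR to a common library size) in Day2_Gata2, 2181 to 2485 in Day0_Gata2, 1611 to 1656 in Day2_WT and 1863 to 1948 in Day0_WT, and none was at 0. Gata2 itself stood at 491 and 737 CPM in Day2_Gata2 and at 611, 752 and 677 CPM in Day0_Gata2, against 291, 262 and 259 CPM in Day2_WT and 446 and 329 CPM in Day0_WT. Every library with the Gata2 label had more Gata2 RNA than every WT library of its day, and these counts cannot show which allele it came from. Its difference in response was 0.37 (SE 0.28), and it passed neither the test of this difference nor that of the average response.

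No single gene passed the test of the difference in response: edgeR's quasi-likelihood test called 0 genes in the positive direction (0%) and 0 in the negative (0%) at an adjusted p under 0.05, with a lowest adjusted p of 0.465. The sign of the fitted difference was positive for 8974 genes (46.8%) and negative for 10188 (53.2%). The count at an unadjusted p under 0.05 was 1984 genes (10.4%), of which 1308 had a positive (6.83%) and 676 a negative difference (3.53%). DESeq2 called 172 positive (0.898%) and 49 negative genes (0.256%), with 2484 at an unadjusted p under 0.05 (13%). The limma voom fit with quality weights called 0 of either sign, with 672 genes at an unadjusted p under 0.05 (3.51%). On all 36570 genes with a count, edgeR called 1 positive gene (0.00273%) and 1 negative (0.00273%), with 2438 at an unadjusted p under 0.05 (6.67%). The edgeR count rests on 1 library: without Day0_WT replicate 2, which leaves the library that stands apart as the sole one of its group, it was 2068 positive and 4665 negative genes, and without Day0_WT replicate 1 it was 0. Below, the words blunted (same direction and smaller in the libraries labelled Gata2), enlarged (same direction and larger) and opposite describe fitted values and not calls. A gene is called separated where each of the 6 pairs of a Day2_Gata2 and a Day0_Gata2 library differed from each of the 6 WT pairs in the same direction on log2(CPM + 1). That held for 1198 genes in the positive direction (6.25%) and 1468 in the negative (7.66%).

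The Day0 to Day2 response itself was large. Averaged over the genotypes, 2812 genes rose (14.7%) and 3863 fell (20.2%), each at an adjusted p under 0.05 in edgeR. These 6675 calls became 4021 without Day2_Gata2 replicate 1 and 12400 without Day0_WT replicate 2, counted as genes called for the average Day2 response. In the libraries labelled Gata2 alone 858 genes rose (4.48%) and 924 fell (4.82%), and in WT alone 2286 rose (11.9%) and 3434 fell (17.9%). Of the genes that rose on average, 2224 (79.1%) had the smaller response in the libraries labelled Gata2, 581 (20.7%) the larger and 7 an opposite one. Their median response was 0.61 in the libraries labelled Gata2 and 0.92 in WT. Of the genes that fell, 2662 (68.9%) were blunted, 1145 (29.6%) enlarged and 56 opposite, with median responses of -1.47 in the libraries labelled Gata2 and -2.34 in WT. Over all tested genes, called or not, 50.1% were blunted, 23.9% enlarged and 26% opposite. Among genes whose 2 responses had the same direction, the blunted share was 79.3% of the called rises and 69.9% of the called falls. Among all tested genes of this kind it was 67.7%. It was 74.2% where the average response was positive and 62.5% where it was negative. Each called share thus lay above that of its own direction. The genotypes lay close at Day2 (median differences of -0.05 for the rises and 0.00 for the falls) and apart at Day0 (0.25 and -0.49). In the fit without Day0_WT replicate 1 the Day0 medians were 0.12 for its rises and -0.07 for its falls. The median difference in response was then -0.15 for the rises and 0.09 for the falls, against -0.31 and 0.52 with all libraries. Without Day0_WT replicate 1 the blunted share was 72.1% of the rises and 55.3% of the falls. Genes chosen by the response of the libraries labelled Gata2 alone gave 540 blunted and 311 enlarged rises and 420 blunted and 489 enlarged falls. Those chosen by the WT response alone gave 1985 blunted and 224 enlarged rises and 2603 blunted and 482 enlarged falls. Each choice leans toward a larger response in the genotype used to choose, so neither can decide whether the falls were blunted. Choosing by the average response is free of such a lean only where the groups spread equally. Day0_WT had the largest spread (0.405 log2 units), and its noise moves chosen rises and falls alike toward blunted. How far this raised the blunted shares was not tested, so those shares cannot decide whether responses were blunted either. The shares among called rises and falls, with this lean in them, are the background against which the gene lists below are read.

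**Figure D1:**
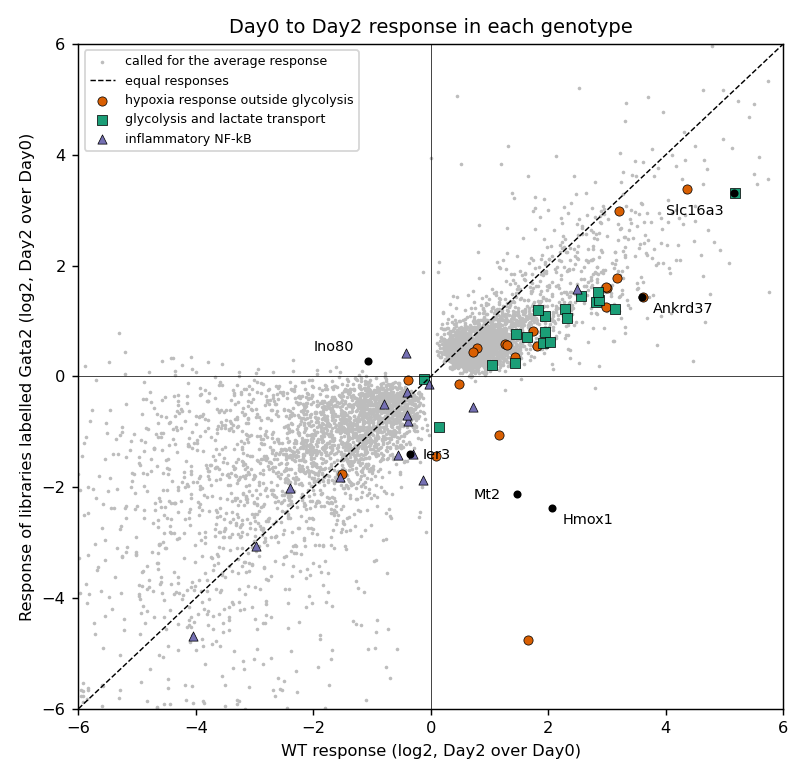
Each point is a gene, with the response of the libraries labelled Gata2 on the vertical axis and the WT response on the horizontal axis, both as log2 of Day2 over Day0. Grey points are 5643 of the 6675 genes called for the average response (the other 1032 lie beyond the axes), and the dashed line marks equal responses. Hypoxia and glycolysis genes lie below the line on the right, and Hmox1 and Mt2 lie where the WT response is positive and that of the libraries labelled Gata2 is negative.

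The HIF-type hypoxia genes outside glycolysis had the second most negative median difference of the 36 lists examined, after glycolysis. Of 20 tested members, 19 had a negative difference, 12 of them at an unadjusted p under 0.05 (3.53% of all genes), and 15 were separated in that direction (7.66% of all genes). The median member had a response of 0.56 in the libraries labelled Gata2 and 1.54 in WT, a median difference of -1.04 against -0.06 over all genes tested. The SE over libraries given for a list belongs to a related quantity, the difference in response of the list's median centred level per library. It was 0.11 here. That quantity can differ from the median of fitted differences. For example, it was smaller for the B cell and lymphoid priming lists. Lists in which its sign was opposite included the dendritic cell, immediate early and cytokine feedback lists. The SE therefore describes spread between libraries and gives no test of the median beside it. Averaged over genotypes 14 members rose, all 14 were blunted (79.1% of all rises), and the median difference of all genes that rose was -0.31. The 2 members that fell were Ddit4 and Egln1. The list's median level, centred per gene on log2(CPM + 1), was 0.20 and -0.07 in Day2_Gata2 and -0.55, -0.52 and -0.56 in Day0_Gata2, against 0.95, 0.89 and 1.03 in Day2_WT and -0.53 and -0.52 in Day0_WT. The 5 Day0 libraries of both genotypes lay together, the libraries labelled Gata2 at Day2 lay in between, and the WT libraries at Day2 lay above all others. The genotype difference of the median member was accordingly -0.95 at Day2 and -0.07 at Day0. In these bulk libraries, fewer cells of a type and less RNA per cell cannot be told apart. Over the 23 alternative settings the list median kept its sign and ran between -1.3 and -0.85, with -0.95 without Day0_WT replicate 1.

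The promoters of 4 genes of this list and of the glycolysis list are printed because they carry the letters that HIF binds, ACGTG, given in capitals on either strand (as CACGT on the other), so that CACGTG holds a match on each. They are RefSeq windows of GRCm38.p6, 250 bases before to 50 after the annotated start, read 5′ to 3′ along the gene.
Slc16a3 (chr11:120948817-120949116, + strand): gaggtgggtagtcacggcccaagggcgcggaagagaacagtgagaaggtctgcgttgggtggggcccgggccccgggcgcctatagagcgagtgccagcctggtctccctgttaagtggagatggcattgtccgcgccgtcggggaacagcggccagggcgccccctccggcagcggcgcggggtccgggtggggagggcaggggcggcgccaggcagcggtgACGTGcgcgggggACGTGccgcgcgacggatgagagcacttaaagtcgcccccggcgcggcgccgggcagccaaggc
Ankrd37 (chr8:45999801-46000100, - strand): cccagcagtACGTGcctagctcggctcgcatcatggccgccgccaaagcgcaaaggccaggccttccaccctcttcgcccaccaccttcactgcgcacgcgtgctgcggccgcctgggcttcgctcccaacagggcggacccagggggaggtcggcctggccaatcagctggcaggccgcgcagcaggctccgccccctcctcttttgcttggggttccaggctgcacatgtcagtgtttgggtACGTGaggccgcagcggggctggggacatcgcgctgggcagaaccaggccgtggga
Ldha (chr7:46845554-46845853, + strand): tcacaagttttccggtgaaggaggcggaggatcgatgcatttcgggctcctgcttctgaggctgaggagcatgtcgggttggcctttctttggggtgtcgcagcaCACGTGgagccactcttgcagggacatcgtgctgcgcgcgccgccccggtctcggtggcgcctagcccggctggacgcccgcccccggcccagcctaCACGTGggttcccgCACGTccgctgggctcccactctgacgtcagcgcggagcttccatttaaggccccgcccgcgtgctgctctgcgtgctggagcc
Bnip3 (chr7:138909457-138909756, - strand): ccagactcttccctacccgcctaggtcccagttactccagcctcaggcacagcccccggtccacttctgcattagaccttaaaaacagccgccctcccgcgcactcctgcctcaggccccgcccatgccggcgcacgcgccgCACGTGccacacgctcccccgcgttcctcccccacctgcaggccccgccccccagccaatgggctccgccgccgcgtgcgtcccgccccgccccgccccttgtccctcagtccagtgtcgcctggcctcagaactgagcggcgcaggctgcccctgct
Counted on both strands, the windows held 2 matches in Slc16a3, 2 in Ankrd37, 5 in Ldha and 2 in Bnip3. At least 1 match was present in 10 of 16 hypoxia members with a window (62.5%) and in 9 of 18 glycolysis members (50%), against 3057 of 12435 windows of tested genes (24.6%). A match is a run of letters and not a measured binding site.

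Ankrd37, an ankyrin repeat protein gene directly induced by HIF-1, showed the pattern most plainly (chromosome 8, 45996902 to 46005707, GRCm38, - strand). It stood at 4.76 and 4.28 CPM in Day2_Gata2 and at 2.12, 1.49 and 1.41 CPM in Day0_Gata2, against 19.6, 22.8 and 30.6 CPM in Day2_WT and 2.13 and 1.88 CPM in Day0_WT. It rose in both genotypes, by 1.43 (SE 0.32) on the log2 scale in the libraries labelled Gata2 and by 3.60 (SE 0.38) in WT, and the Day2 groups did not overlap. The difference was -2.17 (SE 0.47), between -2.32 and -1.91 over all alternatives, with an adjusted p of 0.465 in edgeR and 0.00234 in DESeq2. Bnip3, a receptor that marks mitochondria for removal, was at 73.4 and 64.9 CPM in Day2_Gata2 and at 22.4, 20.3 and 17.7 CPM in Day0_Gata2, against 246, 214 and 281 CPM in Day2_WT and 35.4 and 19.5 CPM in Day0_WT. Its response was 1.78 in the libraries labelled Gata2 and 3.17 in WT, both rises in edgeR, with a difference of -1.39 (SE 0.35).

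The HIF prolyl hydroxylase Egln3, which marks HIF for degradation, stood at 92.7 and 102 CPM in Day2_Gata2 and at 44.1, 35.8 and 42.6 CPM in Day0_Gata2, against 213, 183 and 232 CPM in Day2_WT and 18.7 and 33.9 CPM in Day0_WT. Its difference in response was -1.73 (SE 0.34), of which the genotype difference at Day0 made up 0.63, with the libraries labelled Gata2 higher. Ero1l, an oxidase that forms disulfide bonds in the endoplasmic reticulum, had responses of 1.59 in the libraries labelled Gata2 and 3 in WT. Pdk1, a kinase that limits the use of pyruvate in the mitochondrion, rose by 1.82 in WT. Its response of 0.55 in the libraries labelled Gata2 did not pass the test. Vegfa, the vascular growth factor, stood at 91.8 and 67.9 CPM in Day2_Gata2 and at 22, 18.1 and 38 CPM in Day0_Gata2, against 154, 151 and 153 CPM in Day2_WT and 10.3 and 28.0 CPM in Day0_WT. Its difference was -1.37 (SE 0.58), and -0.82 without Day0_WT replicate 1, the lower of the Day0_WT values.

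Ddit4, an inhibitor of mTORC1 signalling that hypoxia and other stresses induce, was called for its average response as a fall. It was at 10.4 and 6.74 CPM in Day2_Gata2 and at 27.3, 23.5 and 19.1 CPM in Day0_Gata2, against 37, 33.4 and 40.7 CPM in Day2_WT and 34.3 and 35.7 CPM in Day0_WT. It fell by 1.44 in the libraries labelled Gata2, while its WT response was 0.08 (adjusted p = 0.824 in edgeR), which gave a difference of -1.53 (SE 0.35). Egln1, the main HIF prolyl hydroxylase under normal oxygen, fell by 1.76 in the libraries labelled Gata2 and by 1.51 in WT, a difference of -0.25 (SE 0.43) that was 0.08 without Day0_WT replicate 1. The lowest fitted value of the list, -6.41 (SE 2.61), belonged to Adm, the vasodilator adrenomedullin, and rests on few reads: 0 in both Day2_Gata2 libraries and 0, 4 and 8 in Day0_Gata2, against 32, 14 and 50 in Day2_WT and 8 and 2 in Day0_WT. Neither of its responses passed the test. The one member with a positive difference was Car9, a carbonic anhydrase, at 0.33 (SE 0.38) with responses of -0.06 in the libraries labelled Gata2 and -0.39 in WT.

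**Figure D2:**
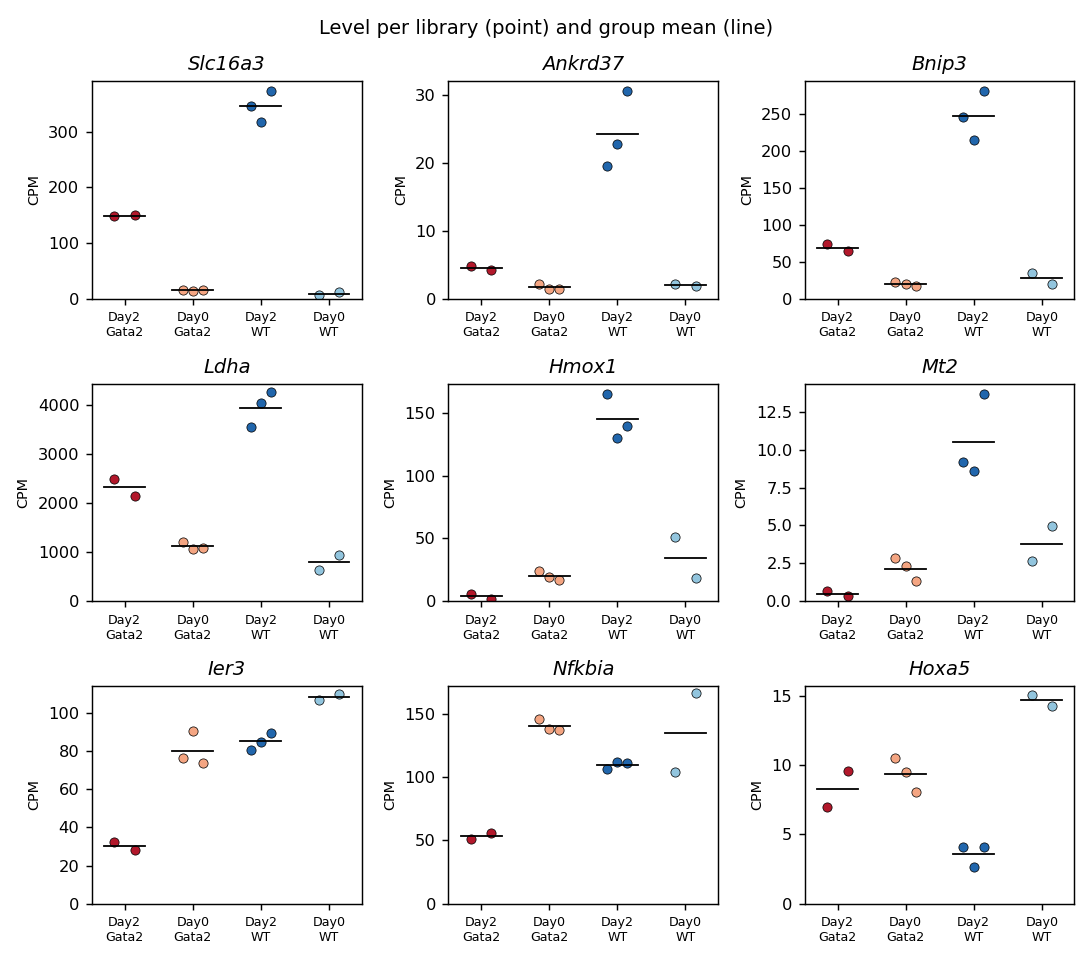
Level of 9 genes in CPM (vertical axis, linear from 0) in each library, grouped by Day2_Gata2, Day0_Gata2, Day2_WT and Day0_WT. Points are libraries and lines are group means. Slc16a3, Ankrd37, Bnip3 and Ldha are highest in Day2_WT, Hmox1 and Mt2 are lowest in Day2_Gata2 and highest in Day2_WT, Ier3 and Nfkbia are lowest in Day2_Gata2, and Hoxa5 is lowest in Day2_WT.

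Glycolysis and lactate transport had the most negative median difference of the lists. Of 19 tested genes 18 had a negative difference. Of these, 15 had an unadjusted p under 0.05 in edgeR (3.53% of all genes), and 15 were separated in that direction (7.66% of all genes). The median response was 1.05 in the libraries labelled Gata2 and 1.94 in WT. The list median was -1.13 (SE 0.28 over libraries). Averaged over genotypes 17 members rose and all 17 were blunted (79.1% among all rises). The median level was 0.38 and 0.40 in Day2_Gata2 and -0.56, -0.69 and -0.55 in Day0_Gata2, against 0.96, 0.96 and 1.2 in Day2_WT and -1.46 and -0.77 in Day0_WT. In contrast to the hypoxia list, this difference came from both times: the median member differed by -0.73 at Day2 and by 0.43 at Day0, and the 2 Day0_WT libraries lay apart. The list median was -0.82 without Day0_WT replicate 1, -1.73 without Day0_WT replicate 2, and -0.59 with the library's TEC share (a gene class described further on) as a covariate. The part of that library in the result beyond these values was not tested.

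Slc16a3, the lactate exporter MCT4 (chromosome 11, 120948480 to 120960868, GRCm38, + strand), had the lowest p of the named genes with a negative difference. It stood at 148 and 151 CPM in Day2_Gata2 and at 15.3, 13.7 and 16.3 CPM in Day0_Gata2, against 346, 318 and 373 CPM in Day2_WT and 7.3 and 11.7 CPM in Day0_WT. The 4 groups did not overlap, and the libraries labelled Gata2 lay below WT at Day2 and above WT at Day0. It rose by 3.31 (SE 0.19) in the libraries labelled Gata2 and by 5.17 (SE 0.24) in WT. The difference of -1.86 (SE 0.27) ran between -2.40 and -1.38 over the alternatives. Its adjusted p was 0.465 in edgeR and 2.19e-06 in DESeq2. Of the 2 calls that edgeR made on all genes without the low count filter, this was the negative one.

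Glucose entry and the upper steps followed. The glucose transporter Slc2a1 was at 87.9 and 85.2 CPM in Day2_Gata2 and at 36.1, 39 and 36 CPM in Day0_Gata2, against 188, 177 and 216 CPM in Day2_WT and 10.5 and 33.5 CPM in Day0_WT. Its difference was -1.9 (SE 0.52), and -1.3 without the lower of the Day0_WT values. The second transporter Slc2a3 had responses of 1.39 in the libraries labelled Gata2 and 2.86 in WT. Pfkl, the liver form of the enzyme that commits sugar to glycolysis, had nearly level Day0 libraries: it stood at 515 and 558 CPM in Day2_Gata2 and at 306, 339 and 338 CPM in Day0_Gata2, against 949, 864 and 995 CPM in Day2_WT and 313 and 285 CPM in Day0_WT. Its difference of -0.93 (SE 0.17) stayed between -1.03 and -0.81 over the alternatives.

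Among the lower steps, Eno1 (enolase) had responses of 1.34 in the libraries labelled Gata2 and 2.81 in WT. Pkm, pyruvate kinase, had responses of 0.62 in the libraries labelled Gata2 and 2.02 in WT, of which the WT one passed the test as a rise. Ldha, which turns pyruvate into lactate, stood at 2491 and 2139 CPM in Day2_Gata2 and at 1206, 1068 and 1084 CPM in Day0_Gata2, against 3549, 4024 and 4249 CPM in Day2_WT and 638 and 945 CPM in Day0_WT. It rose by 1.05 in the libraries labelled Gata2 and by 2.32 in WT, a difference of -1.27 (SE 0.25). Galk1, which brings galactose into the same route and stands on no list, had a response of 0.15 (SE 0.13) in the libraries labelled Gata2, which did not pass the test, and rose by 1.09 (SE 0.14) in WT. The exception was Pfkfb3, which makes an activator of phosphofructokinase, with a difference of 0.05 (SE 0.43) and neither response past the test. The sign of that value turned negative in 7 of the 23 alternatives.

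**Figure D3:**
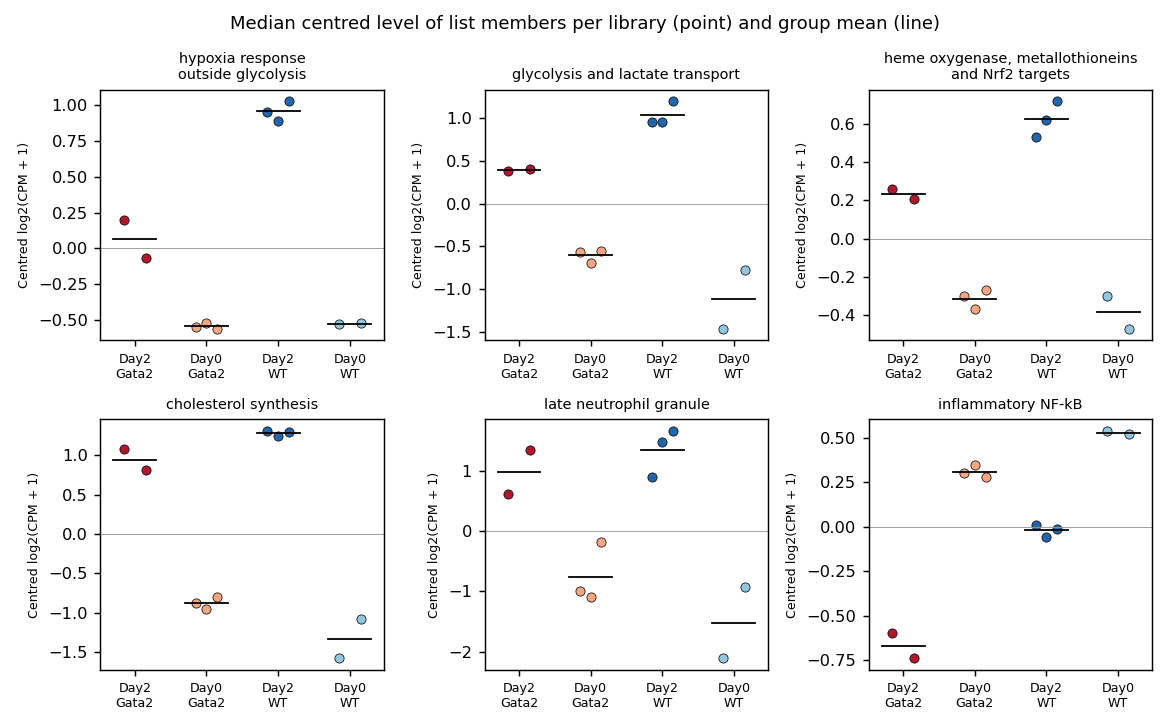
Median level of the tested members of 6 lists in each library, as log2(CPM + 1) centred per gene over the 10 LSK libraries (vertical axis), grouped by Day2_Gata2, Day0_Gata2, Day2_WT and Day0_WT, with points for libraries and lines for group means. The hypoxia list has all Day0 libraries between -0.56 and -0.52, while the 2 Day0_WT libraries lie apart for glycolysis, cholesterol synthesis and late neutrophil granule genes.

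Heme oxygenase and metallothionein 2 had fitted responses of opposite sign in the 2 genotypes. Hmox1, which degrades heme to biliverdin, iron and carbon monoxide (chromosome 8, 75093621 to 75100589, GRCm38, + strand), stood at 5.81 and 1.93 CPM in Day2_Gata2 and at 23.8, 19.6 and 17.2 CPM in Day0_Gata2, against 165, 130 and 139 CPM in Day2_WT and 51.1 and 18.2 CPM in Day0_WT. It fell by 2.38 (SE 0.52) in the libraries labelled Gata2 and rose by 2.06 (SE 0.51) in WT, each at an adjusted p under 0.05 in edgeR. The difference was -4.45 (SE 0.73), between -5.89 and -3.87 over the alternatives. Its adjusted p was 0.465 in edgeR, 0.211 in limma voom and 4.57e-06 in DESeq2. Mt2, a zinc and copper binding metallothionein, stood at 0.652 and 0.335 CPM in Day2_Gata2 and at 2.83, 2.31 and 1.34 CPM in Day0_Gata2, against 9.19, 8.57 and 13.7 CPM in Day2_WT and 2.66 and 4.96 CPM in Day0_WT. It fell by 2.12 (SE 0.55) in the libraries labelled Gata2, and the WT response of 1.46 (SE 0.52) did not pass the test. Its neighbour Mt1 rose in both genotypes, by 1.90 in the libraries labelled Gata2 and by 2.56 in WT.

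The rest of that list was closer between the genotypes. Of its 17 tested genes 15 had a negative difference, 5 at an unadjusted p under 0.05 in edgeR (3.53% of all genes). The median was -0.45 (SE 0.10 over libraries), with median responses of 0.47 in the libraries labelled Gata2 and 1.45 in WT. The positive members were the glutathione synthesis subunit Gclm, at 0.36 (SE 0.19), and sulfiredoxin Srxn1, at 0.27 (SE 0.36), and both rose in each genotype. Among iron genes, the iron regulatory protein Aco1 had responses of -0.08 in the libraries labelled Gata2 and 0.75 in WT. Over the 23 alternatives the heme oxygenase list median kept its sign. It ran between -0.82, where Day0_WT replicate 2 was left out, and -0.24, where the fit included the TEC share. Leaving out Day0_WT replicate 1 gave -0.34. The list of 11 iron genes had a median difference of -0.23 (SE 0.16 over libraries), with 8 members negative. It was -0.02 with the TEC share as a covariate, and with a library left out it ran between -0.61 (without Day0_WT replicate 2) and -0.07 (without Day2_Gata2 replicate 1).

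An opposite direction in every pair, lower in the libraries labelled Gata2 and higher in WT, was found for 132 genes (0.689%), and the reverse for 139 genes (0.725%). Among genes with a proper symbol and 5 CPM or more the counts were 92 (0.869%) and 49 (0.463%). The first set held Serpina3g, a serine protease inhibitor, at 225 and 209 CPM in Day2_Gata2 and at 264, 280 and 244 CPM in Day0_Gata2, against 371, 350 and 381 CPM in Day2_WT and 179 and 237 CPM in Day0_WT. It rose by 0.82 in WT, and its response of -0.27 in the libraries labelled Gata2 did not pass the test. Anxa2, a membrane-binding annexin, had responses of -0.25 in the libraries labelled Gata2 and 1.26 in WT. Selenbp1, a methanethiol oxidase, had responses of -0.68 in the libraries labelled Gata2 and 0.89 in WT.

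Genes of sterol synthesis, amino acid supply and protein folding rose on average, and their median difference was negative, with a share of it at Day0. Cholesterol synthesis had 16 tested genes, all 16 of which rose on average, 15 blunted and 1 enlarged (background 79.1% blunted), with median responses of 1.95 in the libraries labelled Gata2 and 2.60 in WT. The list median was -0.66 (SE 0.22 over libraries), with median genotype differences of -0.25 at Day2 and 0.33 at Day0. It was -0.41 without Day0_WT replicate 1, -1.13 without Day0_WT replicate 2 and -0.29 with the TEC share as a covariate. Cyp51, a demethylase of lanosterol, was at 162 and 130 CPM in Day2_Gata2 and at 33.7, 33.6 and 31.7 CPM in Day0_Gata2, against 188, 223 and 209 CPM in Day2_WT and 30.9 and 26.1 CPM in Day0_WT. The Day0 libraries were nearly level, and the difference in response was -0.71 (SE 0.21). Hmgcs1, which makes the precursor of mevalonate, had a larger difference, -1.51 (SE 0.70), that was -0.78 without Day0_WT replicate 1, in which it was at 5.56 CPM. The enlarged member was Lss, the enzyme that forms lanosterol, at 0.37 (SE 0.46).

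Amino acid response genes, driven by the stress factor ATF4, had a median difference of -0.59 (SE 0.33 over libraries), with 12 of 15 called rises blunted and 3 enlarged, a share near the 79.1% among all rises. Trib3, a pseudokinase that restrains ATF4, stood at 17.3 and 21.6 CPM in Day2_Gata2 and at 4.59, 4.92 and 4.14 CPM in Day0_Gata2, against 61.7, 57.4 and 62.9 CPM in Day2_WT and 1.11 and 5.41 CPM in Day0_WT. The Day2 groups lay far apart, while the difference in response, -2.08 (SE 0.68), was -1.38 without Day0_WT replicate 1. Slc7a5, a leucine transporter, was close at Day2, with 348 and 417 CPM in Day2_Gata2 and 440, 394 and 366 CPM in Day2_WT, and its difference of -0.96 (SE 0.27) lay at Day0. The chaperone list had 16 of 17 members negative and a median of -0.43 (SE 0.20 over libraries). For these lists the difference lay mostly at Day0, with medians of 0.38 for amino acid genes and 0.30 for chaperones, and the amino acid median was -0.29 with Day0_WT replicate 1 left out and -1.19 with replicate 2 left out. For chaperones the same values were -0.28 and -0.88. With the TEC share as a covariate the medians were -0.05 for amino acid genes and -0.19 for chaperones.

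**Figure D4:**
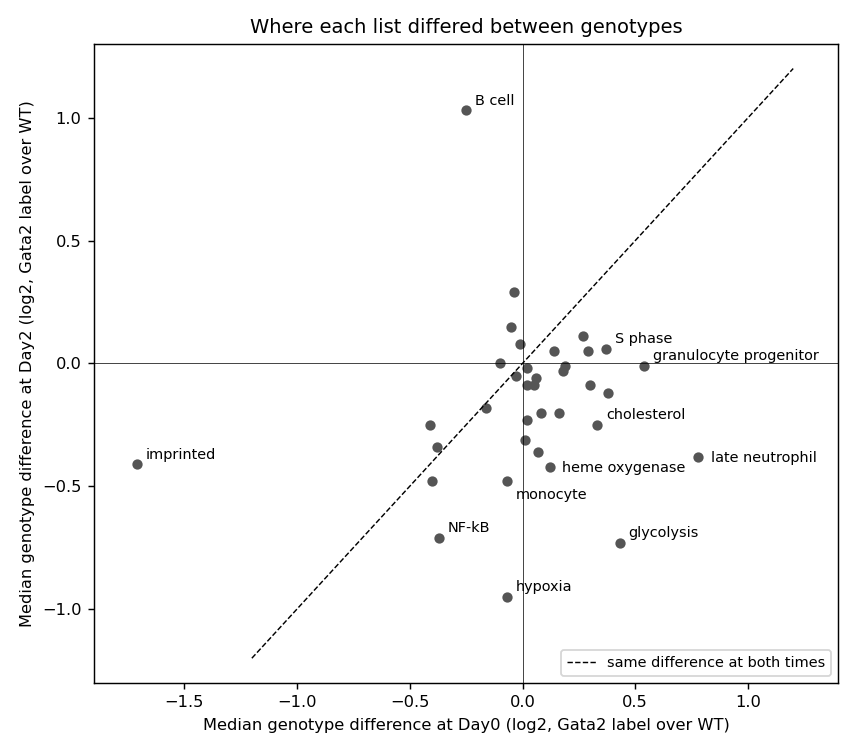
Each point is 1 of the 36 lists, with the median genotype difference of its members at Day2 on the vertical axis and at Day0 on the horizontal axis (log2, Gata2 label over WT). For a single gene the difference in response is the vertical distance from the dashed line of equal differences, which holds for list medians in approximation alone. Hypoxia lies far below the line at a Day0 difference of -0.07, glycolysis and late neutrophil genes lie below it with higher Day0 values, and the B cell list lies above it.

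Granulocyte genes had large but uncertain differences. The late neutrophil list had a median difference of -0.98 (SE 0.70 over libraries), with 11 of 12 members negative. Its median responses were 2.06 in the libraries labelled Gata2 and 3.26 in WT. On average 9 members rose, all 9 blunted (79.1% among all rises). Its 5 marker genes summed to 598 and 916 CPM in Day2_Gata2 and to 150, 154 and 266 CPM in Day0_Gata2, against 864, 1424 and 1711 CPM in Day2_WT and 75.6 and 167 CPM in Day0_WT. The Day2 ranges overlapped. S100a9, a calcium-binding neutrophil protein, was at 137 and 132 CPM in Day2_Gata2 and at 38.8, 37.8 and 59.0 CPM in Day0_Gata2, against 166, 362 and 414 CPM in Day2_WT and 9.28 and 45.4 CPM in Day0_WT. Camp, the cathelicidin antimicrobial peptide, had responses of 0.88 in the libraries labelled Gata2 and 2.76 in WT, and Ngp, another granule protein, 2.80 and 3.75 in the same order. The member with a positive difference was the gelatinase Mmp9, at 3.81 (SE 1.77), which was at 14.5 CPM in 1 Day2_Gata2 library and at 1.34 CPM in the other. The list median was -2.98 without Day0_WT replicate 2 and -0.49 at its nearest to 0 with a library left out. It was -0.30 with the TEC share and -0.29 with the repeat share (counts on repeat-rich genes) as a covariate. Early granulocyte and monocyte genes had a median of -0.56 (SE 0.58 over libraries), which became -0.18 without Day0_WT replicate 1. The sign of that median turned with these covariates, to 0.07 with the TEC share and 0.03 with the repeat share.

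Some falls were larger in the libraries labelled Gata2. In the inflammatory NF-kB list 12 of 16 tested genes had a negative difference, with a median of -0.35 (SE 0.07 over libraries) and median responses of -1.10 in the libraries labelled Gata2 and -0.41 in WT. Of the 7 members that fell on average 5 were enlarged and 2 blunted, against 29.6% enlarged among all falls. The median level was -0.60 and -0.74 in Day2_Gata2 and 0.30, 0.35 and 0.28 in Day0_Gata2, against 0.01, -0.06 and -0.01 in Day2_WT and 0.54 and 0.52 in Day0_WT. The libraries labelled Gata2 were thus the lower ones at both times, with median genotype differences of -0.71 at Day2 and -0.37 at Day0, and all 4 groups lay apart. The list median stayed between -0.52 and -0.21 over the alternatives, with -0.47 without Day0_WT replicate 1.

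Nfkbia, the inhibitor that NF-kB induces to end its own signal, stood at 50.9 and 55.6 CPM in Day2_Gata2 and at 146, 138 and 137 CPM in Day0_Gata2, against 106, 112 and 111 CPM in Day2_WT and 104 and 166 CPM in Day0_WT. It fell by 1.4 (SE 0.19) in the libraries labelled Gata2, and its WT response of -0.30 (SE 0.18) did not pass the test. The chemokine Cxcl2 had 0.0593 and 0 CPM in Day2_Gata2 and 3.91, 5 and 5.34 CPM in Day0_Gata2, against 1.66, 1.3 and 1.3 CPM in Day2_WT and 0.0484 and 3.61 CPM in Day0_WT, so that its WT response rests on which Day0_WT library is read. Ccl4, a chemokine that fell in both genotypes, had responses of -4.69 in the libraries labelled Gata2 and -4.04 in WT. Nfkb1, which encodes a subunit of the factor itself, had a positive difference of 0.84 (SE 0.38) that was 0.15 without Day0_WT replicate 1 and -0.27 with the TEC share as a covariate.

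Ier3, an early response gene that restrains stress signalling (chromosome 17, 35821684 to 35822923, GRCm38, + strand), had the same form. It was at 32.6 and 28.0 CPM in Day2_Gata2 and at 76.5, 90.5 and 73.5 CPM in Day0_Gata2, against 80.8, 84.9 and 89.7 CPM in Day2_WT and 107 and 110 CPM in Day0_WT. It fell by 1.4 (SE 0.15) in the libraries labelled Gata2, with a WT response of -0.35 (SE 0.15) that did not pass the test. The difference of -1.05 (SE 0.21) lay between -1.26 and -0.91 over the alternatives and had an adjusted p of 0.465 in edgeR and 0.00498 in DESeq2. Other early genes did not share it as a group. The immediate early list of 22 genes had a median difference of -0.04 (SE 0.25 over libraries), whose sign changed in 10 of the 23 alternatives. Of its 19 genes that fell on average, 9 were blunted and 10 enlarged (29.6% enlarged among all falls). Jun, a subunit of AP-1, was enlarged at -1.22 (SE 0.36), with responses of -6.65 in the libraries labelled Gata2 and -5.43 in WT. The nuclear receptor Nr4a1 was blunted at 1.38 (SE 0.35), with Day0 levels of 51.1, 87.5 and 68.9 CPM in Day0_Gata2 and 193 and 267 CPM in Day0_WT.

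Antigen presentation and interferon genes fell on average, 7 of 10 in the MHC class II list and 15 of 18 in the type I interferon list. The MHC class II list had a median difference of -0.35 (SE 0.24 over libraries), and -0.11 without Day2_WT replicate 3. It had 5 enlarged and 2 blunted falls (29.6% enlarged among all falls). H2-Ab1, a class II beta chain, was at 48.3 and 46.8 CPM in Day2_Gata2 and at 161, 132 and 121 CPM in Day0_Gata2, against 71.7, 89.9 and 118 CPM in Day2_WT and 72.3 and 139 CPM in Day0_WT. It fell by 1.54 in the libraries labelled Gata2, and its WT response was -0.19 (SE 0.28). Type I interferon response genes had 11 enlarged and 4 blunted falls (29.6% enlarged among all falls). Their median difference was -0.21 (SE 0.25 over libraries), smaller in size than that SE. The lymphoid priming list had 8 of 11 members positive and a median difference of 0.35 (SE 0.10 over libraries). Of its 9 called falls 8 were blunted (68.9% of all falls). All genes that fell had a median difference of 0.52, so the list median was no larger than that of falls in general. The list median was 0.12 without Day0_WT replicate 1. The enlarged fall on it was the lymphotoxin subunit Ltb, which fell by 3.09 in the libraries labelled Gata2 and by 1.65 in WT.

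The 12 genes named by lowest p in the positive direction were taken from separated genes with a proper symbol and 5 CPM or more. Of these, 11 fell in WT, against 17.9% of all genes. A positive difference by itself favours a fall in WT, so this count is a description alone. Ino80, the ATPase of a nucleosome remodelling complex, stood at 29.9 and 43.8 CPM in Day2_Gata2 and at 35, 28.6 and 28.3 CPM in Day0_Gata2, against 17.9, 16 and 15.3 CPM in Day2_WT and 36.6 and 32.3 CPM in Day0_WT. It fell by 1.07 (SE 0.22) in WT, and its response of 0.27 (SE 0.22) in the libraries labelled Gata2 did not pass the test. The 3 Day2_WT libraries lay below the other 7. The difference of 1.34 (SE 0.31) ran between 1.03 and 1.58 over the alternatives, with 1.26 without Day0_WT replicate 1. Hoxa5, a homeobox gene of early progenitors (chromosome 6, 52201754 to 52204587, GRCm38, - strand), was at 6.95 and 9.56 CPM in Day2_Gata2 and at 10.5, 9.5 and 8.05 CPM in Day0_Gata2, against 4.13, 2.63 and 4.07 CPM in Day2_WT and 15.1 and 14.3 CPM in Day0_WT. It fell by 2.03 (SE 0.32) in WT, with a response of -0.18 (SE 0.32) in the libraries labelled Gata2 and a difference of 1.85 (SE 0.45).

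Hoxa9, its neighbour in the Hoxa cluster, fell by 0.77 in the libraries labelled Gata2 and by 1.55 in WT. Its Day2 levels were 41.0 and 42.2 CPM in Day2_Gata2 and 38.7, 39.4 and 41.7 CPM in Day2_WT, so the difference of 0.78 (SE 0.20) lay at Day0. Hlf, a stem cell transcription factor, had a difference of 0.58 (SE 0.23), likewise with near-equal Day2 levels. The whole stem cell list of 20 genes had a median of 0.07 (SE 0.17 over libraries), and its sign changed in 5 of the 23 alternatives. Quiescence genes had a median of 0.32 (SE 0.18 over libraries) and 9 of 14 members positive.

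Other genes of low p in the positive direction had smaller differences without the library that stands apart. Ash1l, a histone methyltransferase, was at 103 CPM in both Day2_Gata2 libraries and at 104, 103 and 104 CPM in Day0_Gata2, against 78.7, 64.7 and 53.1 CPM in Day2_WT and 261 and 128 CPM in Day0_WT. Its difference of 1.55 (SE 0.37) was 0.96 without Day0_WT replicate 1. The zinc finger factor Ikzf2 was at 35 and 48.6 CPM in Day2_Gata2 and at 27.9, 30.5 and 30.0 CPM in Day0_Gata2, against 34.0, 24.1 and 21.5 CPM in Day2_WT and 74.0 and 44.3 CPM in Day0_WT. Its difference was 1.66 (SE 0.39), and 1.26 without that library. The splicing factor Luc7l2 had 1.09 (SE 0.27) and 0.84 without it, the ankyrin repeat gene Ankrd12 1.91 (SE 0.48) and 1.02, the interferon-induced Ifi203 1.25 (SE 0.29) and 0.87, the neuronal scaffold gene Ppp1r9a 1.63 (SE 0.39) and 1.11, and the mitochondrial complex I subunit mt-Nd6 2.29 (SE 0.55) and 1.15. The mitochondrial gene lies opposite other genes on a compact genome, so without known strand counting its reads cannot be told from those of its partners.

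The lowest p among the named positive genes belonged to Mzb1, a chaperone of immunoglobulin-secreting B cells (chromosome 18, 35647267 to 35649367, GRCm38, - strand). It was at 0.257 and 0.237 CPM in Day2_Gata2 and at 7.07, 4.20 and 3.44 CPM in Day0_Gata2, against 0 in all 3 Day2_WT libraries and 7.01 and 6.70 CPM in Day0_WT. Set against a floor of 3 counts per library, it fell at least 116-fold in WT. The kinase gene Brsk2 had levels of 1.09 and 1.5 CPM in Day2_Gata2 and 2.73, 2.03 and 1.65 CPM in Day0_Gata2, against 0.381, 0.284 and 0.439 CPM in Day2_WT and 8.03 and 3.78 CPM in Day0_WT. The germ cell and neural genes Zan, Astl and Nkx1-1 had Day0_WT values that differed between the libraries, at 16.3 and 3.74 CPM for Zan, 22.2 and 0.705 CPM for Astl and 13.1 and 0.216 CPM for Nkx1-1, and under 2 CPM in each Day2_Gata2 library. B cell genes as a list had a median difference of 1.73 (SE 0.67 over libraries) that became -0.08 without Day2_Gata2 replicate 2. Their 5 markers summed to 0.672 and 4.22 CPM in Day2_Gata2 and 42.6, 29.0 and 20.2 CPM in Day0_Gata2, against 0.285, 1.19 and 0.379 CPM in Day2_WT and 101 and 18.8 CPM in Day0_WT, and Ebf1, Ms4a1 and Pax5 were at 0 in every Day2_WT library. The part of B cells in the values of Mzb1 was not tested.

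Gene class moved with the direction. Among the 721 tested genes of the TEC class (a GENCODE class of mostly single-exon transcripts that still lack experimental support), 21.4% had a positive and 0.971% a negative difference at an unadjusted p under 0.05, and the median was 0.98. Sense intronic genes had a median of 0.87 and antisense genes of 0.41, against -0.12 for the 14792 protein-coding genes, of which 5.61% were positive and 4.28% negative. The TEC share of counts was 0.0648% and 0.0702% in Day2_Gata2 and 0.159%, 0.131% and 0.148% in Day0_Gata2, against 0.0582%, 0.0406% and 0.0314% in Day2_WT and 0.362% and 0.187% in Day0_WT. Both genotypes had the higher share at Day0, and the WT groups lay further apart than the groups labelled Gata2. Its part in single genes was not tested beyond the fit with this share as a covariate.

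**Figure D5:**
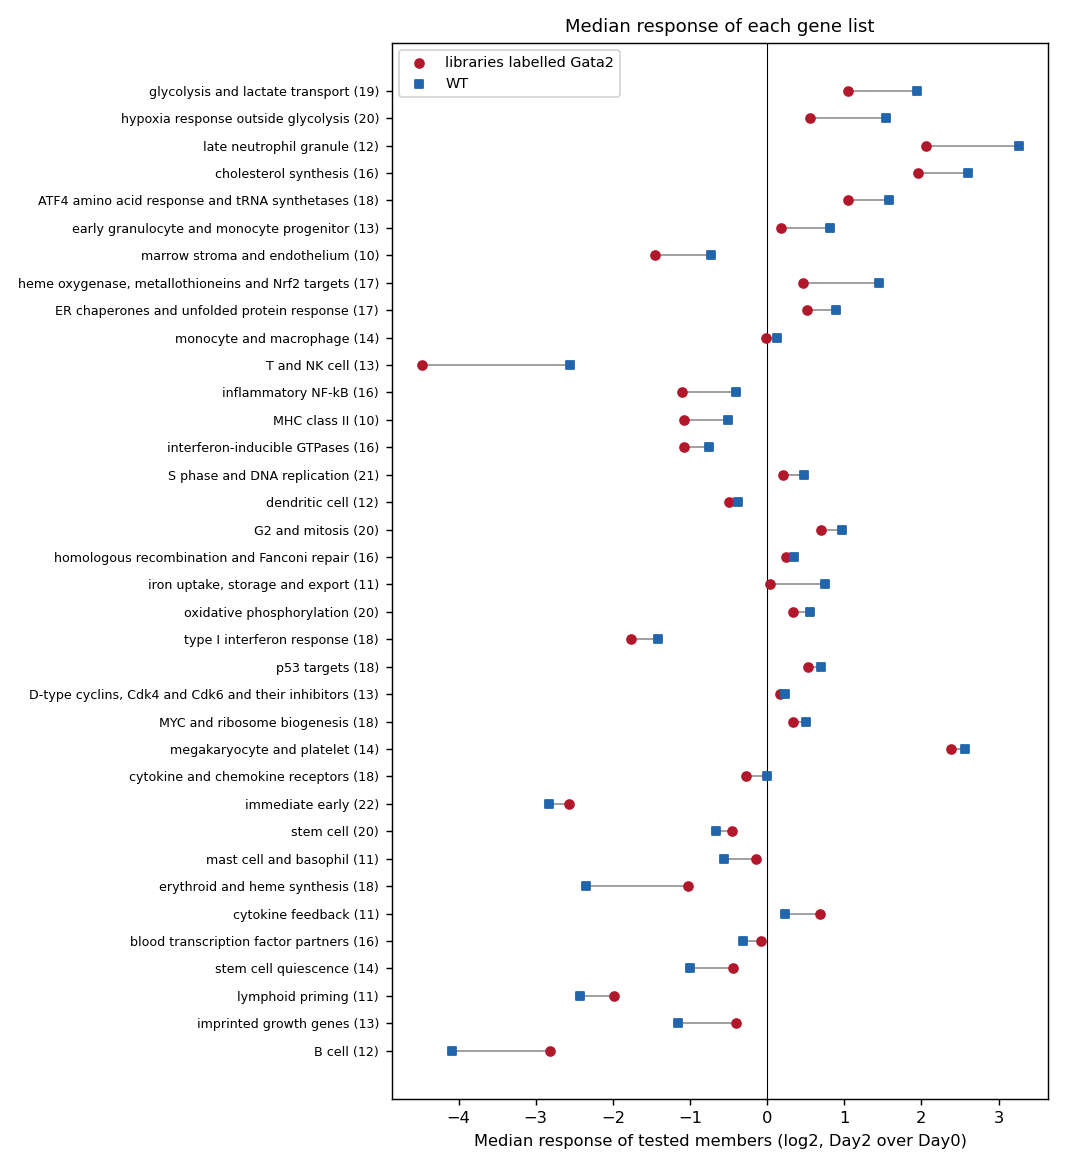
Median response of the tested members of each of the 36 lists (number tested in parentheses), as log2 of Day2 over Day0 on the horizontal axis, with circles for the libraries labelled Gata2 and squares for WT, ordered by the median difference in response. Glycolysis, hypoxia and late neutrophil genes at the top have the circle left of the square, stem cell quiescence and lymphoid priming near the bottom have it to the right, and the pair lies close for megakaryocyte and platelet genes.

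Other responses were of similar size in both genotypes. The 4 genes of lowest average-response p among rises with a difference within 0.25 were Asns (asparagine synthetase), Serpine2 (a thrombin inhibitor), Tuba8 (an alpha tubulin) and Pf4 (platelet factor 4). Asns stood at 259 and 264 CPM in Day2_Gata2 and at 24.5, 18.7 and 21 CPM in Day0_Gata2, against 311, 315 and 280 CPM in Day2_WT and 16.9 and 26.3 CPM in Day0_WT. Its difference was -0.19 (SE 0.27), although it belongs to the same amino acid response as Trib3. Serpine2 had responses of 3.02 in the libraries labelled Gata2 and 2.95 in WT. Pf4 had responses of 4.42 in the libraries labelled Gata2 and 4.31 in WT, and the megakaryocyte list a median difference of -0.10 (SE 0.28 over libraries), whose sign changed in 7 of the 23 alternatives.

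Among falls, Dusp1, a phosphatase that ends MAP kinase signals, was at 10.7 and 11.4 CPM in Day2_Gata2 and at 775, 960 and 525 CPM in Day0_Gata2, against 16.1, 16.2 and 13.9 CPM in Day2_WT and 787 and 1077 CPM in Day0_WT. The RNA-decay factor Zfp36 had responses of -4.16 in the libraries labelled Gata2 and -4.11 in WT, and the kinase gene Pnck of -6.69 and -6.80 in the same order. Gprin1, a G protein target of neurite outgrowth, had 247, 228 and 267 CPM in Day0_Gata2 and 165 and 266 CPM in Day0_WT and no count in any Day2 library of either genotype. Against the floor of 3 counts per library, it fell at least 4182-fold in the libraries labelled Gata2 and at least 3634-fold in WT, so the difference between its responses has no estimate. In the cytokine feedback list, Pim2, a survival kinase induced by STAT5, rose by 2.43 in the libraries labelled Gata2 and by 2.23 in WT.

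S phase genes had a median difference of -0.30 (SE 0.12 over libraries), with 14 of 21 members negative, 6 at an unadjusted p under 0.05 (3.53% of all genes) and 10 separated in that direction (7.66% of all genes). All 9 called rises were blunted (79.1% among all rises), and the median was -0.20 without Day0_Gata2 replicate 1 and -0.59 without Day0_WT replicate 2. The helicase subunit Mcm4 was at 382 and 393 CPM in Day2_Gata2 and at 247, 288 and 270 CPM in Day0_Gata2, against 374, 374 and 364 CPM in Day2_WT and 172 and 201 CPM in Day0_WT. The genotypes met at Day2, and the difference of -0.46 (SE 0.17) lay at Day0. Mitotic genes had a median of -0.27 (SE 0.26 over libraries) that became 0.07 without Day0_WT replicate 1 and -0.70 without Day0_WT replicate 2. Cdkn1a, an inhibitor of cyclin-dependent kinases, had responses of 0.69 in the libraries labelled Gata2 and 1.5 in WT, of which the WT one passed the test as a rise. Oxidative phosphorylation genes had a median of -0.23 (SE 0.19 over libraries) with 18 of 20 members negative (53.2% of all genes). Of their called rises 12 of 12 were blunted (79.1% among all rises). That median was -0.11 without Day0_WT replicate 1, -0.65 without Day0_WT replicate 2, and 0.01 with the TEC share or the repeat share as a covariate. Ribosome biogenesis genes had a median of -0.10 (SE 0.05 over libraries). All genes that rose had a median difference of -0.31. With all libraries, the S phase, mitotic and oxidative phosphorylation medians were no larger in size than that of rises in general.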

How the data were processed

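The deposited table holds raw counts of reads for each Ensembl ID, whole numbers that the authors had not normalized. The submitters' processing notes name Trimmomatic 0.38, STAR 2.5.2b and the mm10 build. No source used here gives the counting program or its strand setting, and which library was made with which of the kits named in the labels' protocols is not stated. Reads of overlapping, antisense and near-identical genes may be shared. Symbols, positions and gene classes were looked up in GENCODE M21 (GRCm38).

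The 10 LSK libraries were fitted as 4 groups with edgeR 4.0.16 (R 4.3.3), using TMM scaling, filterByExpr, the robust quasi-likelihood test, Benjamini-Hochberg adjustment over 19162 genes. The 6 Week2 libraries entered 1 alternative alone. CPM values use TMM library sizes. The pseudocount on log2 was 1. Columns of no sample numbered 0, and 0 rows named no gene. Replicates of a group differed beyond counting noise (chi-square per degree of freedom between 28.4 and 215). Bounds and floors cover counting error only.

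The members and the 36 lists (565 entries, 558 tested) were chosen with earlier results of these data known. Named genes were Gata2, the 12 of lowest p in each direction that were separated, had a proper symbol and reached 5 CPM, the 3 of lowest p per list, and 4 per direction with a difference within 0.25 and the lowest average-response p. Bnip3, Pdk1, Vegfa, Ddit4, Slc2a1, Slc2a3, Pkm, Anxa2, Selenbp1, Mt1, Gclm, Srxn1, Pfkfb3, Car9, Hmgcs1, Lss, Ccl4, Pim2, Luc7l2, Ankrd12, Ngp, Mmp9, Egln1 and Adm were picked once their values had been seen.

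Alternatives tried were scaling by RLE or by upper quartile, testing without the low count filter, 5 CPM in 2 libraries, DESeq2 1.42.0, limma voom 3.58.1, all 16 libraries, each library left out, the replicate number as a block, sex, TEC share or repeat share of the library as a covariate, and protein-coding genes alone. Choosing genes by the response of 1 genotype, and leaving out both libraries of high Xist, were added after the data were seen. The procedure was tested on simulated data.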

Additional observations from a re-analysis of the deposited data

How the results depend on the processing

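The number of genes called for the genotype difference in response (0) became 2 without the low count filter, 221 with DESeq2, and 5307 without both libraries of high Xist, and ran between 0 and 6733 with each library left out in turn, the highest without Day0_WT replicate 2. The number of genes called for the average Day2 response (6675) was 1062 with the repeat share as a covariate and 11021 without both libraries of high Xist, and ran between 4021 (without Day2_Gata2 replicate 1) and 12400 (without Day0_WT replicate 2) with a library left out. Blunted rises (2224) numbered 1355 without the filter, 1459 with 5 CPM in 2 libraries, 1360 with the TEC share, 364 with the repeat share, 3414 without both libraries of high Xist and 540 when chosen by the response of the libraries labelled Gata2, and 994 to 3529 with a library left out. Enlarged rises (581) numbered 235, 184, 71 and 323 without the filter, with the TEC share, with the repeat share and without the libraries of high Xist, 311 and 224 when chosen by the response of the libraries labelled Gata2 and of WT, and 342 to 951 with a library left out. Blunted falls (2662) numbered 4209 without the filter, 425 with the repeat share, 4511 without the libraries of high Xist and 420 when chosen by the response of the libraries labelled Gata2, and 1709 to 5107 with a library left out. Enlarged falls (1145) numbered 1776 without the filter, 665 with 5 CPM in 2 libraries, 528 with the TEC share, 202 with the repeat share, 489 and 482 when chosen by the response of the libraries labelled Gata2 and of WT, and 761 to 1938 with a library left out. The cause of these moves was not tested.

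The sign of the difference in response turned for the following genes with a difference described in its own right. With the TEC share as a covariate it was -0.01 for Gata2, -0.27 for Nfkb1, 0.28 for Egln1, 0.11 for Pim3, -0.05 for Ikzf1, -0.16 for Ccnd1, 0.17 for Brca1, 0.05 for Atp5a1, -0.12 for Gbp2, 0.30 for Gbp3, -0.54 for Cd209a, -0.09 for Tcf4, -0.71 for Ppbp, 0.04 for Ctsg, -0.25 for Klrd1, -0.51 for Srxn1, -1.15 for Pfkfb3, -0.49 for Car9 and -0.97 for Lss. With the repeat share it was 0.09 for Egln1, -0.11 for Ccnd1, 0.10 for Gbp3, -0.01 for Tcf4, 0.03 for Ctsg, -0.30 for Srxn1, -0.88 for Pfkfb3, -0.28 for Car9 and -0.69 for Lss. Without Day2_Gata2 replicate 2 it was -0.21 for Slc4a1, -0.51 for Hba-a1 and -5.25 for Cd79a. Without Day0_WT replicate 1 it was -0.25 for Srxn1, -0.68 for Pfkfb3, -0.19 for Car9 and -0.50 for Lss. Egln1 ran between -0.81 and 0.17 with a library left out. With a library left out the highest values were 7.09 for Slc4a1, 4.30 for Hba-a1, 4.32 for Cd79a, 0.51 for Srxn1, 0.39 for Pfkfb3, 0.57 for Car9 and 0.76 for Lss. With limma voom it was -0.06 for Srxn1, -0.37 for Pfkfb3 and -0.16 for Lss. For Pfkfb3 it was also -0.10 without the filter, -0.10 without Day2_Gata2 replicate 1 and -0.09 with the replicate block. Among genes named for close responses, the sign of the difference changed in 11 of the 23 alternatives for Zfp36, 5 for Pnck, 4 for Serpine2, 3 each for Asns, Pf4, Dusp1 and Gprin1, and 0 for Tuba8.

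Replicate numbers did not pair the libraries (correlations of deviations between -0.146 and 0.0896). With the replicate block 0 genes were called for the difference, with 729 at an unadjusted p under 0.05, and the average response gave 2307 rises and 2711 falls. The scaling moved the median difference of all genes from -0.06 to 0.01 with RLE and 0.04 with upper quartile scaling. The shallowest library, Day0_WT replicate 1, held 19618830 counts, so low genes are least precise there.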

Other observations

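Genes of cell types other than LSK cells gave these values. Tcf7, a T cell factor also present in early progenitors, stood at 0.217 and 0.789 CPM in Day2_Gata2 and at 12.2, 9.95 and 11.6 CPM in Day0_Gata2, against 2.46, 1.09 and 1.34 CPM in Day2_WT and 2.90 and 4.92 CPM in Day0_WT. Its difference in response was -3.21 (SE 0.85), between -4.41 and -2.55 over the alternatives, and it fell in the libraries labelled Gata2 by 4.48. The T cell receptor genes Cd3e and Cd3g, and Cd8a, were at 0 in every Day2 library of both genotypes. The dendritic cell list had 7 of 12 members negative and a median difference of -0.29 (SE 0.14 over libraries). All 4 of its called falls were enlarged (29.6% among all falls). The sign of the median changed in 2 of the 23 alternatives (0.20 for genes of 5 CPM in 2 libraries and 0.31 without Day2_Gata2 replicate 1). On that list Siglech, a receptor of plasmacytoid dendritic cells, went against the median. It rose by 3.61 in the libraries labelled Gata2 and by 1.65 in WT, with 36.2 and 23.2 CPM in Day2_Gata2 and 1.74, 3.11 and 2.45 CPM in Day0_Gata2, against 23.7, 24.9 and 29.3 CPM in Day2_WT and 13.2 and 3.43 CPM in Day0_WT. Its difference of 1.96 (SE 0.69) was 0.70 without Day0_WT replicate 1.

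The marrow stroma and endothelium list had 7 of 10 members negative and a median difference of -0.49 (SE 0.17 over libraries), which was -0.14 without Day0_WT replicate 2 and positive, at 1.18, for the genes that passed 5 CPM in 2 libraries. Against that median, its member Emcn, an endothelial and stem cell surface gene, had a difference of 2.10 (SE 0.60), and 1.05 without Day0_WT replicate 1, in which it was at 41.4 CPM. The survival kinase Pim1 was at 37.4 CPM in 1 Day2_Gata2 library and at 167 CPM in the other, and its difference of 1.69 (SE 0.78) was 0.23 at its nearest to 0 with a library left out. Cdk6, a kinase partner of D-type cyclins, was at 530 and 761 CPM in Day2_Gata2 and at 674, 614 and 593 CPM in Day0_Gata2, against 469, 351 and 350 CPM in Day2_WT and 720 and 602 CPM in Day0_WT. It fell by 0.76 in WT, and its response in the libraries labelled Gata2 was 0.04 (SE 0.19).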
